A study of Mus musculus with 4 samples.

Results

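Splicing factor genes of the mouse preimplantation embryo were described across stages, as genes and as isoforms. The members were all genes whose symbol starts with Srsf, Hnrnp, Snrp, Sf3a or Sf3b, which gave 52 of the 20171 genes in the gene table (11 Srsf, 20 Hnrnp, 12 Snrp and 9 Sf3 genes) and 833 of the 68012 isoforms in the isoform table. Single oocytes, zygotes and blastomeres had been sequenced as full-length cDNA by HIT-scISOseq, a PacBio long-read method in which a unique molecular identifier (UMI) counts each captured molecule. The 161 cells were MII oocytes collected 20 hours after hCG injection, zygotes at 22 to 24 hours, early 2-cell embryos (E2C) at 30 to 32 hours, late 2-cell embryos (L2C) at 46 to 48 hours, 4-cell embryos at 54 to 56 hours, 8-cell embryos at 68 to 70 hours, 16-cell and 32-cell embryos at 78 to 80 hours, early blastocysts at 88 to 90 hours, and cultured mouse embryonic stem cells (mESCs). Embryos came from C57BL/6J females aged 6 to 8 weeks crossed with DBA/2NCrl males, while the sample labels give the strain as DBA/2J x C57BL/6J. The females had been injected with pregnant mare's serum gonadotropin and then with hCG. No other treatment is named, and the comparison is one of developmental time. The mESCs were of the male line E14 Tg2A.

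Splicing is carried out by the spliceosome, which is built from small nuclear ribonucleoproteins (snRNPs) that each carry a ring of Sm proteins around a small nuclear RNA. SR proteins mostly promote the use of the exons they bind, hnRNPs often oppose it, and the SF3a and SF3b complexes belong to the U2 snRNP that recognises the branch point of an intron. The oocyte supplies the early embryo with stored transcripts, and in the mouse the main wave of transcription from the embryonic genome comes at the 2-cell stage, so that the step from E2C to L2C spans genome activation.

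Values were copies per 100000 UMIs of a cell, averaged over the cells of an embryo. Replicates were taken from the column names, which give 10 oocytes, 9 zygotes, 5 embryos at E2C, 6 at L2C, 5 at 4-cell, 4 at 8-cell and 4 at 16-cell, or 43 in all with 121 of the 161 cells. P-values therefore measure the spread between these embryos. Whether the runs share embryo numbers is not stated, and if they do, cells of 1 label could come from different embryos. The 22 cells of 32-cell embryos, 13 blastocyst cells and 5 mESCs name no embryo and are given as range and median over cells, with no test. The columns do not name the sequencing run, so run and stage cannot be told apart. Depth per cell fell from zygote to 4-cell. Its median was 195671 gene UMIs per oocyte (166731 to 255836), 246466 per zygote (194072 to 389775), 91609 per E2C cell (31037 to 105534), 58097 per L2C cell (17971 to 67963), 32466 per 4-cell blastomere (4985 to 43842), 33030 per 8-cell blastomere (11012 to 42673) and 32481 per 16-cell blastomere (6934 to 60831). Per embryo the median was 168154 at E2C, 115691.5 at L2C, 110517 at 4-cell, 233058.5 at 8-cell and 257243 at 16-cell. The part of depth in the results below was examined only by thinning cells to 5000 UMIs each. That matches cells and not embryos, which are averages of 1 to 15 cells, and the 1 cell below that depth was left out. A UMI stands for 1 molecule, so levels were set side by side between genes without division by length, and whether capture depended on transcript length was not tested.

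A few embryos rested on few cells and UMIs. L2C 1 was represented by 1 cell with 17971 UMIs, against 103135 to 125101 UMIs in the other L2C embryos, and limma gave it an array weight of 0.158 against 0.442 to 0.727. Its summed Sf3 value was 50.1 copies per 100000 UMIs, against 121 to 141 in the other L2C embryos, and its summed Srsf value was 122, against 186 to 281. Total counts of member genes, isoforms and switches called at L2C, and the log2 fold changes of the genes with the largest changes, are therefore given with and without L2C 1. That alternative was chosen after seeing the data. Counts by family and by list, stage means and family sums include L2C 1. The embryo 4-cell 2 had 25411 UMIs from 2 cells, 1 of them with 4985, against 61798 to 165953 in the other 4-cell embryos, and an array weight of 0.187 against 0.431 to 1.02. The embryo 8-cell 3 had 43857 UMIs from 3 cells, against 216638 to 274542, and a weight of 0.399 against 1.13 to 1.38. Without 4-cell 2 limma called 8 members at the step into 4-cell and 4 at the step out of it, and without 8-cell 3 it called 5 from 4-cell to 8-cell and 0 from 8-cell to 16-cell. These counts are of members only, and do not show whether the count over all genes moved with them.

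The stage labels were checked with marker lists. Of 10 oocyte genes, all 10 were detected at each stage from oocyte to 4-cell, and their summed level per cell had a median of 3661 copies per 100000 UMIs in oocytes (H1foo highest, mean 1593), 2501 in zygotes, 719.5 at E2C (Oosp1 highest, mean 359.5) and 108.5 at L2C. The level was not lowest at the end of the series: the median was 208 at 4-cell, where H1foo had risen by limma, 116 at 8-cell, 199 at 16-cell, 20.1 at 32-cell, 278 in blastocysts (H1foo highest, mean 139) and 140 in mESCs. The source of these later UMIs was not tested. Of 10 genes known for expression at the 2-cell stage, 8 were in the table, and their summed median was 48.3 in zygotes, 51.2 at E2C (Tcstv1 highest, mean 29.7) and 5.89 at L2C, with Usp17ld at 0 at L2C. The 10 morula and blastocyst genes had a summed median of 36.9 at E2C, with Cdx2 and Nanog at 0, then 191 at L2C, 519.6 at 8-cell and 739 in blastocysts, with Dppa5a highest throughout. At L2C its mean was 225.9, while Cdx2, Gata3, Nanog and Sox2 were at 0. There 6 of the 10 genes were detected, against 8 at E2C. The list's median log2 fold change from E2C to L2C was -0.069. Cumulus and granulosa genes (8 of 10 in the table) summed to a median of 8.36 in oocytes, with Cyp19a1 highest at 7.45 and Tnfaip6 and Inha at 0, and to 3.24 at E2C and 0 at L2C, where only Star was detected. Sperm genes (4 of 6 in the table) had a summed median of 0.459 or less at every stage, with Prm2 highest in zygotes at a mean of 0.768 and Prm1 and Tnp2 at 0 there. From E2C to L2C the lists gave 1 rise and 4 falls of 10 oocyte genes tested, 0 and 2 of 7 2-cell genes, 2 and 1 of 9 morula and blastocyst genes, 0 and 1 of 1 cumulus gene and 0 and 0 of 1 sperm gene, all by limma. Over all genes, 25.6% rose and 22.8% fell at this step.

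The families followed different courses. The summed Srsf value was 86.3 ± 10.98 copies per 100000 UMIs (SD, n = 10) in oocytes, 85.2 ± 7.76 (n = 9) in zygotes and 86.95 ± 8.66 (n = 5) at E2C, then 205 ± 53.5 (n = 6) at L2C, 261 ± 10.99 (n = 5) at 4-cell, 252 ± 41.4 (n = 4) at 8-cell and 246 ± 74.7 (n = 4) at 16-cell. Every L2C embryo, the lowest at 122, lay above every E2C embryo, the highest at 92.9. The summed Hnrnp value was 328 ± 24.3 (n = 10) in oocytes, 326.5 ± 39.96 (n = 5) at E2C, 378.5 ± 46.3 (n = 6) at L2C and 503 ± 49.1 (n = 4) at 16-cell, with E2C and L2C overlapping. The mean summed Snrp value fell at each step up to L2C: it was 907 ± 79.6 (n = 10) in oocytes, 772 ± 134.5 (n = 9) in zygotes, 617.5 ± 125 (n = 5) at E2C and 461 ± 81.3 (n = 6) at L2C, then 613 ± 66.8 (n = 5) at 4-cell and 687.5 ± 22.5 (n = 4) at 16-cell. Neighbouring stages overlapped along that descent. On a separate chip of oocytes, described at the end, Snrp isoforms summed to 369.1 to 462.9 copies per 100000 isoform UMIs over 4 unsplit oocytes. Snrpg had 381 isoform UMIs over these 4, against 5320 over the 10 oocytes used here. The oocyte level of Snrp genes thus differed between chips, for a reason that was not tested. The summed Sf3 value was 68.2 ± 7.99 (n = 10) in oocytes, 69.1 ± 6.68 (n = 5) at E2C, 119 ± 34.7 (n = 6) at L2C, 135 ± 18.8 (n = 5) at 4-cell and 130.3 ± 5.37 (n = 4) at 16-cell. Apart from L2C 1, which lay below every E2C embryo, the L2C embryos lay above all E2C embryos. Among single cells, the Srsf median was 273 (178 to 333) at 32-cell, 267.5 (202 to 358) in blastocysts and 343 (259.6 to 370.0) in mESCs, and the Snrp median was 720.5 (529.8 to 884), 702 (582 to 807) and 1082 (916 to 1135). The Hnrnp medians were 539.6, 519 and 609.8, and the Sf3 medians 133, 139.5 and 153, in the same order.

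**Figure D1:**
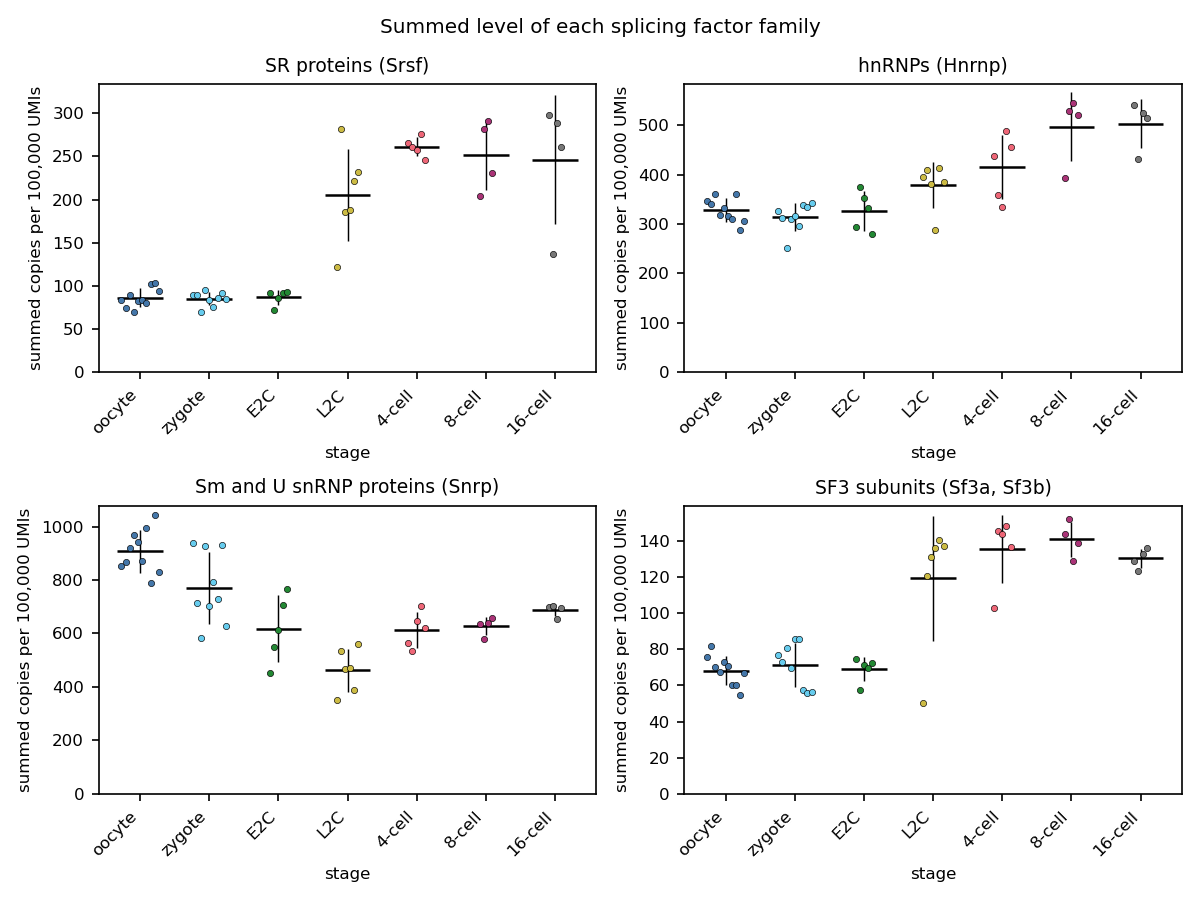
Summed copies per 100,000 UMIs of the Srsf, Hnrnp, Snrp and Sf3 genes by stage, where points are oocytes, zygotes or embryos, bars means and whiskers 1 SD. The Srsf sum stood at 86.95 at E2C and 205 at L2C, while the Snrp sum stood at 617.5 and 461, and the low L2C point of the Sf3 panel, at 50.1, is L2C 1.

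The level also differed between the genes of a family. Snrpg, an Sm ring protein, was the highest Snrp gene, at 274 copies per 100000 UMIs in oocytes, 175 at E2C and 106.5 at L2C. On the separate chip it was not the highest. Over 4 unsplit oocytes it had 381 isoform UMIs there, against 1234 for Snrpb2, 623 for Snrpf and 411 for Snrpd1. Hnrnpc, which binds runs of U in nascent transcripts, was the highest Hnrnp gene, at 63.3 in oocytes, 64.6 at E2C and 78.3 at L2C. On the separate chip Hnrnpf was above it, with 912 isoform UMIs against 555 over the 4 unsplit oocytes. Averaged over the stages, Srsf3, an SR protein that also takes part in mRNA export, was the highest Srsf gene, and Sf3b5, a small SF3b subunit, the highest Sf3 gene, although neither was highest at every stage. Srsf10 was above Srsf3 at L2C (41.4 against 7.32), Srsf7 was above it at 4-cell (60.8 against 21.5), Sf3b1 was above Sf3b5 at E2C (18.8 against 7.94), and Sf3b6 was above it at 16-cell (35.8 against 29.0). Limma called neither Snrpg nor Hnrnpc at any step, while edgeR and DESeq2 both called Snrpg from E2C to L2C. At that step the log2 fold change was -0.55 (limma adjusted p = 0.0773) for Snrpg and 0.23 (limma adjusted p = 0.403) for Hnrnpc. Snrpe, Snrpf, Snrpg, Snrpd2 and Hnrnpa1 have near-identical processed copies elsewhere in the genome, so their values are uncertain where reads could be assigned to either.

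**Figure D2:**
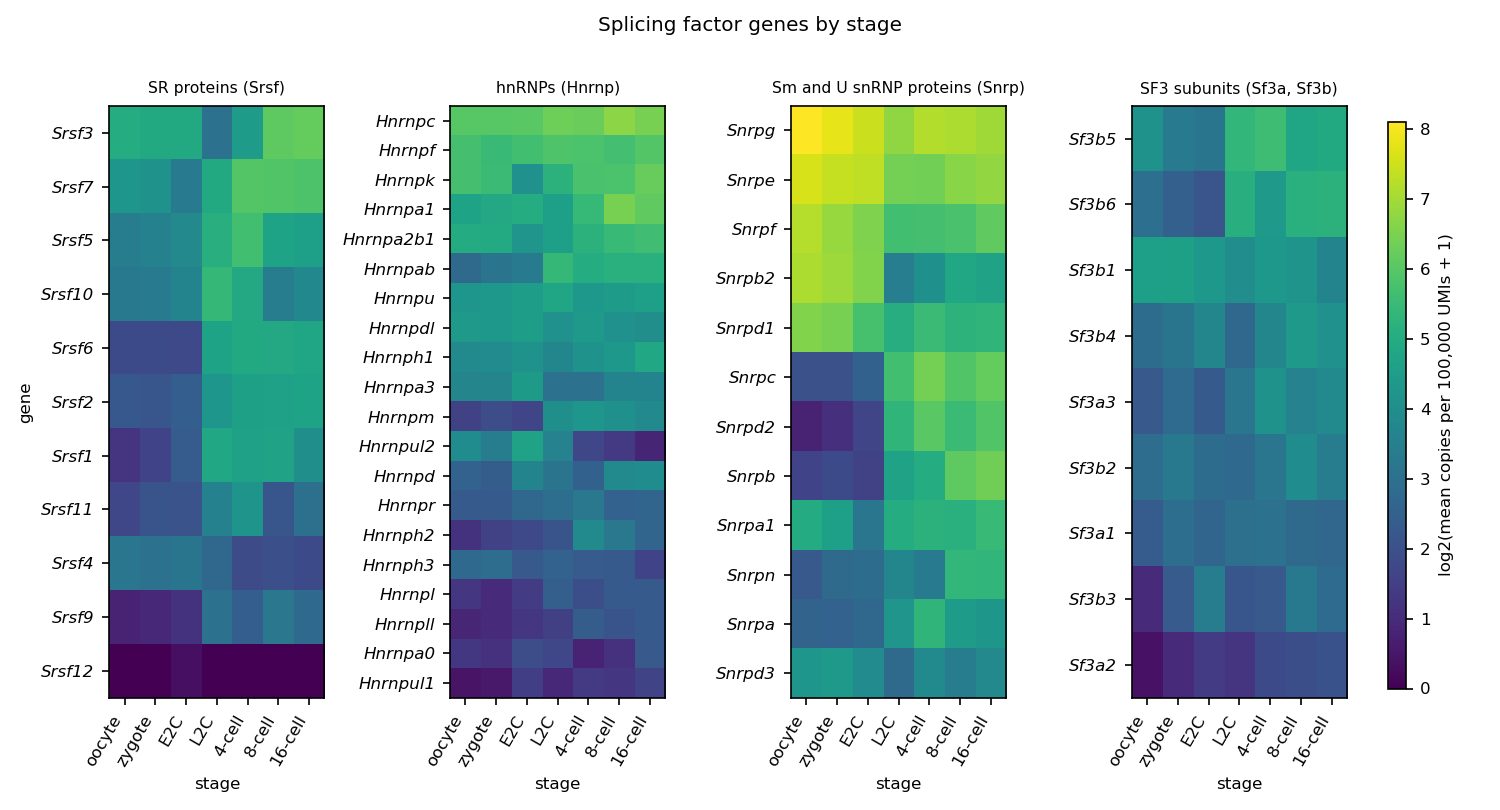
Mean level of each of the 52 genes at 7 stages, coloured as log2(mean copies per 100,000 UMIs + 1), with genes of a family ordered by their mean over stages. The highest value is Snrpg in oocytes, at 274 copies per 100,000 UMIs, and Srsf3 goes from 29.6 at E2C to 7.32 at L2C.

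To ask at which step these genes moved, each pair of neighbouring stages was compared across all 11682 genes that reached 1 copy in 4 or more embryos. A gene was called when its log2 fold change exceeded 1 in size, on the log2(value + 1) scale, and its limma p was below 0.01. Of the 52 genes, 51 were tested; Srsf12, with 2 UMIs in all, was not. From oocyte to zygote 1 member rose and 0 fell, against 2.92% and 0.325% of all genes. The riser was Sf3b3, an SF3b subunit named here after its values were seen. From zygote to E2C 3 rose and 2 fell (5.88% and 3.92%, against 4.52% and 2.75%). From E2C to L2C 19 rose and 6 fell (37.3% and 11.8%, against 25.6% and 22.8% of all genes), and the members' median log2 fold change was 0.26 against 0.03 over all genes. From L2C to 4-cell 5 rose and 1 fell (9.80% and 1.96%, against 2.41% and 4.28%), and from 4-cell to 8-cell 2 rose and 2 fell (3.92% each, against 4.47% and 10.5%). The count of 4 at this last step was 11 with edgeR (21.6%, against 14.3% of all genes), 7 with DESeq2 (13.7%, against 10.5%) and 7 without array weights (13.7%, against 17.2%). From 8-cell to 16-cell limma called 0 members, against 1.90% and 1.46% of all genes; 4 members had an unadjusted p under 0.05, and edgeR and DESeq2 also called 0. Without 16-cell 4 limma called 1. In all, 29 genes were called at 1 or more steps, 20 of them at 1 step, 6 at 2 steps and 3 (Hnrnpul2, Sf3b3 and Srsf3) at 3 steps. These totals are given for members only. From E2C to L2C alone, 49.0% of members were called, against 48.4% of all genes.

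**Figure D3:**
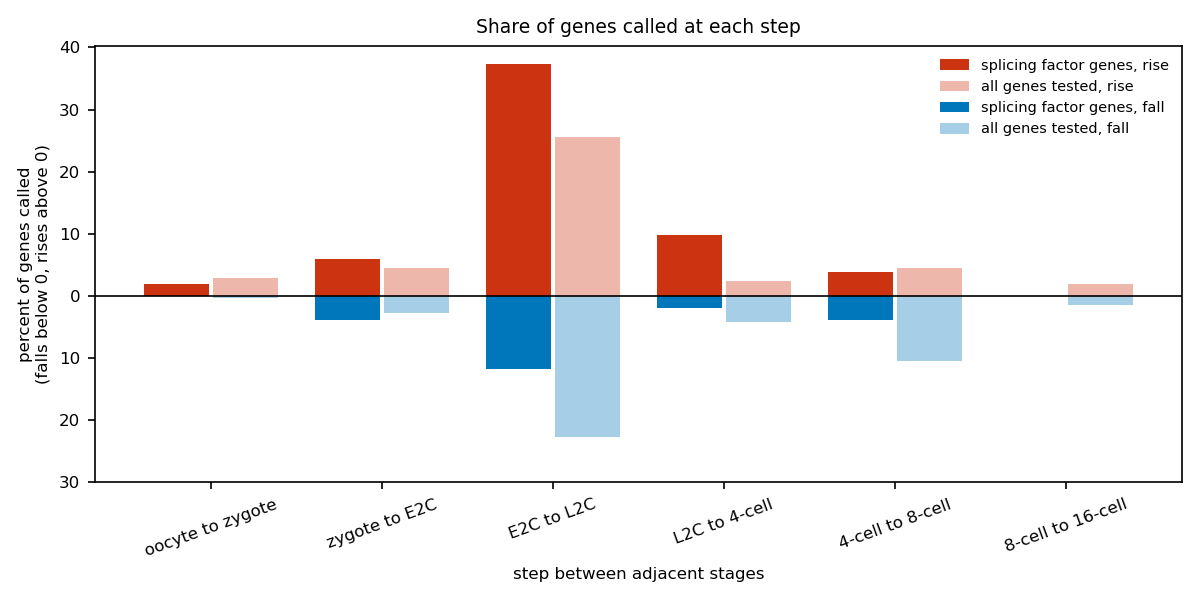
Percent of genes called at each step between neighbouring stages, rises above 0 and falls below, for the splicing factor genes (dark) and all 11682 genes tested (pale). At E2C to L2C 37.3% of the splicing factor genes rose and 11.8% fell, against 25.6% and 22.8% of all genes.

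The split from E2C to L2C was 17 rises and 12 falls with edgeR (33.3% and 23.5%, against 23.8% and 27.2% of all genes with the same tool) and 15 rises and 13 falls with DESeq2 (29.4% and 25.5%, against 18.2% and 24.9%). Of the 25 genes called with limma, 23 were also called by edgeR and 21 by DESeq2. The genes that edgeR added were Hnrnpd, Sf3b4, Snrpd1, Snrpe, Snrpf and Snrpg, and DESeq2 added these and Sf3b1. Without L2C 1, limma called 24 (19 rises and 5 falls), all among the 25. With every cell thinned to 5000 UMIs, 8 of the 25 were still called, 6 as rises and 2 as falls, or 15.7% of members against 16.2% of all genes. Of the genes with the largest changes, described below, Snrpd2, Srsf6, Snrpb, Snrpc and Snrpb2 kept the call at this depth, and Srsf3, Hnrnpa3 and Hnrnpul2 lost it, with log2 fold changes of -3.36, -1.74 and -3.18 that stayed beyond 1 in size.

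Among the Srsf, Hnrnp, Snrp and Sf3 families, Srsf genes gave the most rises at this step with limma at full depth: 8 of 10 tested rose (Srsf1, Srsf2, Srsf5, Srsf6, Srsf7, Srsf9, Srsf10 and Srsf11) and Srsf3 fell (80.0% and 10.0%, against 25.6% and 22.8% of all genes), with a median log2 fold change of 1.61. With cells thinned to 5000 UMIs, 6 rises were left over all families, with Snrpd2, Snrpb and Snrpc among them. Most of the 8 Srsf rises thus lost the call at that depth. Srsf6, an SR protein that promotes exon inclusion, was at 1.30, 3.89, 2.11, 0.551 and 4.31 copies per 100000 UMIs in the 5 E2C embryos and at 11.1, 28.4 and 36.4 (lowest, median and highest) in the 6 L2C embryos. All L2C embryos were above all E2C embryos, and L2C 1 was the lowest of them. The log2 fold change was 3.25 (SE 0.418, limma adjusted p = 1.25e-09), and 3.32 without L2C 1. Srsf3 moved the other way. It stood at 31.7, 29.6, 26.0, 28.1 and 32.4 copies at E2C and at 2.75, 7.86 and 11.1 (lowest, median and highest) at L2C, where L2C 1 was the highest. The groups did not overlap. Srsf3 fell by 2.10 on the log2 scale (SE 0.332, limma adjusted p = 2.26e-07), and by 2.14 without L2C 1. Srsf7, an SR protein with a zinc knuckle, was at 13.1, 2.998, 11.8, 8.55 and 9.22 copies at E2C and at 8.48, 27.8 and 57.7 (lowest, median and highest) at L2C. The groups overlapped through L2C 4, the lowest. Its log2 fold change was 1.66 (SE 0.351, limma adjusted p = 5.12e-05). The other 6 rises ran from 1.37 (Srsf5) to 2.53 (Srsf1). Srsf4, the remaining tested SR gene, was not called, with means of 7.87 ± 1.44 (SD, n = 5) at E2C and 5.47 ± 2.52 (n = 6) at L2C.

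Among the 20 Hnrnp genes, Hnrnpab, Hnrnpk and Hnrnpm rose and Hnrnpa3 and Hnrnpul2 fell from E2C to L2C (15.0% and 10.0%, below the 25.6% and 22.8% of all genes), with a median log2 fold change of 0.23. Hnrnpa3, an A/B type hnRNP, was at 20.7, 26.3, 21.9, 12.9 and 20.0 copies per 100000 UMIs at E2C and at 1.58, 5.94 and 16.7 (lowest, median and highest) at L2C. The groups overlapped only through L2C 1, the highest L2C embryo. Hnrnpa3 fell by 1.78 on the log2 scale (SE 0.333, limma adjusted p = 6.82e-06), and by 1.86 without L2C 1. Hnrnpul2, a relative of hnRNP U, was at 25.3, 32.1, 27.9, 19.4 and 16.7 copies at E2C and at 3.21, 7.49 and 33.4 at L2C. The highest L2C value was again that of L2C 1, above every E2C embryo, while the other 5 L2C embryos were below them. Hnrnpul2 fell by 1.73 (SE 0.381, limma adjusted p = 0.0001), and by 1.84 without L2C 1. The 3 rises ran from 1.24 (Hnrnpk) to 2.50 (Hnrnpm).

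Of the 12 Snrp genes tested, 5 rose (Snrpa, Snrpa1, Snrpb, Snrpc and Snrpd2) and 2 fell (Snrpb2 and Snrpd3; 41.7% and 16.7%, against 25.6% and 22.8% of all genes), with a median log2 fold change of 0.15, so that Sm ring genes and U2 snRNP genes were found in both directions. The split depended on the tool: edgeR and DESeq2 also called Snrpd1, Snrpe, Snrpf and Snrpg, all with lower means at L2C. Snrpd2, an Sm ring protein, was at 0, 3.71, 3.86, 2.07 and 1.61 copies per 100000 UMIs at E2C and at 16.7, 42.1 and 62.1 (lowest, median and highest) at L2C. No L2C embryo overlapped with E2C, and L2C 1 was the lowest. The log2 fold change was 3.80 (SE 0.430, limma adjusted p = 2.97e-11), and 3.85 without L2C 1. Snrpb, the gene of the Sm proteins B and B', was at 4.04, 0.5264, 2.04, 2.14 and 1.09 copies at E2C and at 5.56, 25.05 and 39.7 at L2C. L2C 1, at 5.56, was again the lowest, and the groups did not overlap. The log2 fold change was 3.24 (SE 0.425, limma adjusted p = 2.14e-09), and 3.35 without L2C 1. Snrpc, a U1 snRNP protein that helps to recognise the 5' splice site, was at 2.84, 2.66, 9.09, 4.62 and 4.31 copies at E2C and at 37.9, 46.5 and 71.5 at L2C. Every L2C embryo lay far above the highest E2C embryo. The log2 fold change was 3.21 (SE 0.347, limma adjusted p = 6.73e-12), and 3.23 without L2C 1. Snrpb2, the U2 snRNP protein B'', was at 112, 56.9, 99.6, 117 and 84.8 copies at E2C and at 0, 11.4 and 16.0 at L2C. L2C 1 had 0 UMIs of 17971, and all L2C embryos were below all E2C embryos. Snrpb2 fell by 3.04 on the log2 scale (SE 0.308, limma adjusted p = 9.02e-13), and by 2.87 without L2C 1. Snrpa1, the U2 snRNP protein A' that partners Snrpb2, rose by contrast, from 8.03 ± 3.94 copies (n = 5) to 31.3 ± 13.5 (n = 6).

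**Figure D4:**
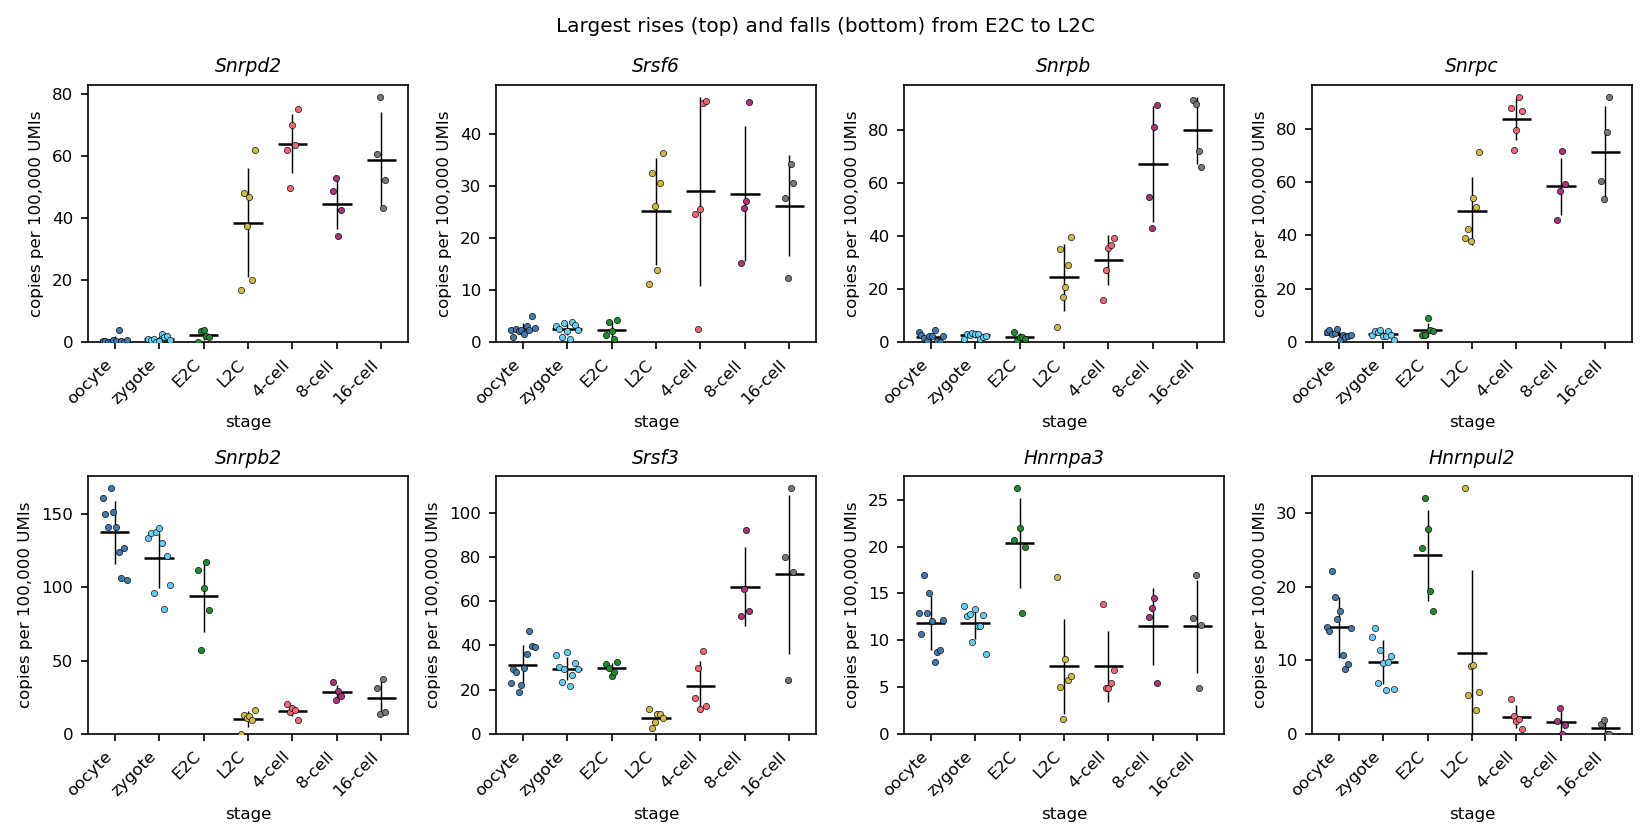
Copies per 100,000 UMIs by stage for the 4 genes with the largest rises (top) and the 4 with the largest falls (bottom) from E2C to L2C among genes at 10 or more copies in the higher stage, where points are oocytes, zygotes or embryos, bars means and whiskers 1 SD. Snrpd2 was at 3.86 copies or less at E2C and 16.7 or more at L2C, and Snrpb2 at 56.9 or more at E2C and 16.0 or less at L2C.

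The share of each Sm ring gene was followed as well. Snrpb made up 0.477 ± 0.486% (SD, n = 5) of the summed value of the 7 Sm ring genes at E2C, 6.94 ± 3.07% (n = 6) at L2C and 16.3 ± 1.87% (n = 4) at 16-cell. Snrpd2 went from 0.436 ± 0.344% (n = 5) at E2C to 10.9 ± 3.63% (n = 6) at L2C. Snrpg held 37.6 ± 3.44% (n = 10) in oocytes, 34.2 ± 5.44% (n = 5) at E2C, 31.5 ± 2.89% (n = 6) at L2C, 33.4 ± 1.65% (n = 5) at 4-cell and 24.9 ± 2.94% (n = 4) at 16-cell, with E2C and L2C overlapping. The proteins of the ring assemble in equal numbers, and protein was not measured.

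Of the 9 SF3 genes, Sf3a3, Sf3b5 and Sf3b6 rose from E2C to L2C and Sf3b3 fell (33.3% and 11.1%, against 25.6% and 22.8% of all genes), with a median log2 fold change of 0.00. Sf3b5 was at 7.95, 8.63, 11.5, 5.72 and 5.96 copies per 100000 UMIs at E2C and at 5.56, 48.1 and 58.0 (lowest, median and highest) at L2C. The lowest was L2C 1, below every E2C embryo, and the other 5 were above them all. The log2 fold change was 2.25 (SE 0.317, limma adjusted p = 1.32e-08). Sf3b2, another SF3b subunit, was at 6.54, 5.47, 6.66, 7.37 and 5.396 copies at E2C and at 3.01, 5.45 and 9.004 at L2C. Its groups overlapped. It was not called by limma, edgeR or DESeq2 (log2 fold change -0.18, limma adjusted p = 0.639). Sf3b1, the largest SF3b subunit, which holds the branch point, was at 18.8 copies at E2C and 14.8 at L2C and was called by DESeq2 but not by limma or edgeR.

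For members that changed together, the letters around the RefSeq transcription start are shown for 3 of the genes with large rises and 2 with large falls, as RefSeq gives them (GRCm38.p6). Each runs from 100 bases before to 20 bases after the RefSeq transcription start, on the plus strand: Snrpd2 at chr7:19149738-19149857, Snrpc at chr17:27839987-27840106, Srsf6 at chr2:162931408-162931527, Snrpb2 at chr2:143062969-143063088 and Srsf3 at chr17:29032560-29032679. Capitals mark matches, on either strand, to the ETS core CGGAAG, the GC box GGGCGG, the TATA box TATAAA or the CCAAT box.
Snrpd2 promoter: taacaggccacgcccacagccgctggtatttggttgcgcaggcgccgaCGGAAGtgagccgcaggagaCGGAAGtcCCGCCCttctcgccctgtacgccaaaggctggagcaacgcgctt
Snrpc promoter: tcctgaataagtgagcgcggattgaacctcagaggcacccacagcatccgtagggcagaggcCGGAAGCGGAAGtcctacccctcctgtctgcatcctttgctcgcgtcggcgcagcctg
Srsf6 promoter: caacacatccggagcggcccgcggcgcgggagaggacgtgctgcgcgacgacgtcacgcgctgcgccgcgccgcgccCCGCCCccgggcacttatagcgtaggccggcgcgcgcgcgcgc
Snrpb2 promoter: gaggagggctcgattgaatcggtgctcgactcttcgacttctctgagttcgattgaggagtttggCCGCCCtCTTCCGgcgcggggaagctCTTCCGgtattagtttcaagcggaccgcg
Srsf3 promoter: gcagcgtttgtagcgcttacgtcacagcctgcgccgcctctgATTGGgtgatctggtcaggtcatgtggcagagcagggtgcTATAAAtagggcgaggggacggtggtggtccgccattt
The ETS core was found 2 times each in the windows of Snrpd2, Snrpc and Snrpb2, and the TATA and CCAAT boxes 1 time each in that of Srsf3. RefSeq windows were found for 46 of the 52 symbols (63 windows). The ETS core was in 30.2% and the GC box in 50.8% of them, against 10.2% and 26.7% of all 32851 windows of this length, the CCAAT box was in 33.3% against 20.8%, and the TATA box in 6.35% against 6.10%. In the 19 windows of 17 genes that rose from E2C to L2C the ETS core share was 47.4%, and in the 38 windows of 23 genes not called it was 23.7%. These are shares of windows, so a gene with several RefSeq starts counts more than once. Among the 5 windows of fallers it was 20.0%. The GC box was in 63.2, 44.7 and 40% of these windows (genes that rose, were not called and fell), the CCAAT box in 21.1, 42.1 and 20.0% and the TATA box in 10.5, 0 and 40%, the last being 2 of 5 windows. A match is a description of letters, and binding was not measured. The first base of the most abundant isoform lay upstream of the RefSeq start in all 5 genes, by 86 bases in Srsf3, 218 in Srsf6, 311 in Snrpd2, 2127 in Snrpc and more than 100 in Snrpb2. Except in Srsf3, the whole window thus lay downstream of that base, and the marked letters describe the RefSeq start rather than the start seen in these data.

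Fewer genes moved at the other steps. At 2 of these steps the median change over all genes exceeded 0.1 in size (0.11 from zygote to E2C and -0.16 from 4-cell to 8-cell), so the log2 fold changes there are given relative to that shift. From zygote to E2C, Hnrnpd, which binds AU-rich elements, was at 1.28, 4.12 and 8.65 copies per 100000 UMIs (lowest, median and highest of 9 zygotes) and at 15.0, 11.6, 17.8, 7.03 and 7.03 at E2C. Of the 5 E2C embryos, 3 were above every zygote. The relative change was 1.17 (limma adjusted p = 0.0022). Hnrnpul2 was at 5.89, 9.75 and 14.4 copies in zygotes, and all 5 E2C embryos were above them (relative change 1.11, limma adjusted p = 0.00118). Snrpa1 was at 17.5, 23.1 and 29.0 copies in zygotes and at 14.0, 5.26, 3.93, 7.72 and 9.18 at E2C. The groups did not overlap, and the relative change was -1.58 (limma adjusted p = 3.81e-06). Hnrnpk, a poly(C)-binding hnRNP, was at 28.4, 38.2 and 68.2 copies in zygotes and at 16.5, 9.36, 11.3, 25.6 and 17.4 at E2C, again with no overlap (relative change -1.49, limma adjusted p = 1.11e-05). With cells thinned to 5000 UMIs the log2 fold change of Hnrnpk, before any shift was taken off, was -0.34 against -1.38 at full depth. Of these 4 genes, Hnrnpd alone kept its call when cells were thinned (Hnrnpul2 was then at 2.15 and Snrpa1 at -1.77), and at a pseudocount of 5 neither Hnrnpd nor Hnrnpul2 was called. Sf3b3 went from 0.973 ± 0.749 copies (n = 10) in oocytes to 3.97 ± 2.38 (n = 9) in zygotes and 9.87 ± 2.53 (n = 5) at E2C.

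From L2C to 4-cell, Hnrnph2, a G-run binding hnRNP encoded on the X chromosome, was at 0, 3.16 and 7.65 copies per 100000 UMIs (lowest, median and highest at L2C) and at 13.7, 20.1, 11.3, 7.56 and 14.3 in 4-cell embryos. Only 4-cell 4 fell within the L2C range. The log2 fold change was 1.63 (limma adjusted p = 0.0202), and 1.53 without L2C 1. Srsf3 was at 16.4, 29.9, 11.3, 37.3 and 12.6 copies in 4-cell embryos, above all L2C embryos (log2 fold change 1.51, limma adjusted p = 0.0129, and 1.56 without L2C 1). Hnrnpul2 fell by 1.44 on the log2 scale (limma adjusted p = 0.0466), to 4.77, 2.45, 1.78, 1.99 and 0.685 copies, of which 4 were below every L2C embryo, and by 1.33 without L2C 1. Its call was lost at a pseudocount of 5 (log2 fold change -0.77), with cells thinned to 5000 UMIs (-1.21) and without 4-cell 5 (-1.05). Hnrnph2 and Srsf3 also lost theirs with cells thinned, at log2 fold changes of 1.85 and 1.63. The other 3 genes called, Hnrnpa2b1, Snrpa and Snrpd3, all rose and are named after their values were seen. Without L2C 1 the count at this step was 6, and without 4-cell 4 or 4-cell 5 it was 3.

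From 4-cell to 8-cell, Snrpn, an imprinted gene for an Sm protein close to Snrpb, was at 9.09, 12.5, 7.85, 11.7 and 4.23 copies per 100000 UMIs in 4-cell embryos and at 48.8, 27.1, 28.8 and 55.0 in 8-cell embryos. There was no overlap, and the change relative to the shift was 2.42 (limma adjusted p = 0.000148). Srsf3 was at 53.4, 65.5, 92.3 and 55.6 copies at 8-cell, all above the 4-cell embryos (relative change 1.76, limma adjusted p = 0.000813). Over the whole series Srsf3 thus stood at 31.3 ± 8.91 copies (n = 10) in oocytes, 7.32 ± 2.99 (n = 6) at L2C and 66.7 ± 17.9 (n = 4) at 8-cell. Srsf11 was at 10.1, 25.0, 15.5, 19.0 and 17.3 copies at 4-cell and at 4.70, 3.18, 0 and 6.21 at 8-cell (relative change -1.72, limma adjusted p = 0.00104). Srsf10, which acts as a splicing repressor when dephosphorylated, was at 32.3, 22.3, 32.9, 25.4 and 30.0 copies at 4-cell and at 14.2, 7.04, 10.8 and 7.49 at 8-cell (relative change -1.34, limma adjusted p = 0.000645). Both genes had all 8-cell embryos below all 4-cell embryos. The count of 4 became 7 without 4-cell 1. With cells thinned to 5000 UMIs, none of these 4 genes was called by limma, although their log2 fold changes stayed beyond 1 in size and in the same direction. Before any shift was taken off, they were then 2.75 for Snrpn, 2.61 for Srsf3, -1.88 for Srsf11 and -1.22 for Srsf10. At full depth the values on that scale were 2.26, 1.60, -1.88 and -1.50, in the same order.

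The 22 tested genes that limma called at no step were Srsf4, 12 Hnrnp genes (Hnrnpa0, Hnrnpa1, Hnrnpc, Hnrnpdl, Hnrnpf, Hnrnph1, Hnrnph3, Hnrnpl, Hnrnpll, Hnrnpr, Hnrnpu and Hnrnpul1), 4 Snrp genes (Snrpd1, Snrpe, Snrpf and Snrpg) and 5 Sf3 genes (Sf3a1, Sf3a2, Sf3b1, Sf3b2 and Sf3b4). Of these, edgeR called the 4 Snrp genes and Sf3b4 from E2C to L2C, and DESeq2 called the same 5 and Sf3b1. The 4 Snrp genes had lower means at each stage from oocyte to L2C. Snrpe went from 193 copies per 100000 UMIs in oocytes to 167, 161 and 84.5, Snrpf from 146 to 115.5, 91.9 and 49.1, and Snrpd1 from 93.0 to 85.7, 53.0 and 31.9.

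Other genes of the splicing pathway were counted at the same step, E2C to L2C, as 7 lists, to be read beside the 25.6% of all genes that rose and the 22.8% that fell. Of the SR protein kinases and the SR importer, 2 of 8 tested rose and 2 fell (25.0% each, median log2 fold change -0.11). Tnpo3, the importin that carries SR proteins into the nucleus, had 0 of 848348 UMIs at E2C, which allows up to 0.354 copies per 100000 UMIs (3 UMIs over the group), and 16.9 ± 3.05 copies (n = 6) at L2C, at least 47.7-fold higher. Srpk2, an SR protein kinase, was at 15.1 ± 6.07 copies (n = 5) at E2C and 2.83 ± 1.73 (n = 6) at L2C. Of SR-related proteins and U2AF, 5 of 19 rose and 3 fell (26.3% and 15.8%, median 0.41), among them Tra2a, a splicing activator (1.24 ± 1.47 copies at E2C, n = 5, and 13.3 ± 8.00 at L2C, n = 6), and Puf60, which binds polypyrimidine tracts (2.28 ± 0.745 and 18.7 ± 8.05 copies). Of proteins of U1, U5 and the tri-snRNP, 11 of 19 rose and 2 fell (57.9% and 10.5%, median 1.10). Snrnp25, of the minor spliceosome, went from 0.739 ± 0.481 to 22.2 ± 4.62 copies, and Snrnp27, of the tri-snRNP, from 106 ± 23.1 to 18.0 ± 7.79. Of the Prp19 complex and catalytic step list 6 of 25 rose and 0 fell with limma (24.0% and 0%, median 0.41, 12 genes at an unadjusted p under 0.05), including Bud31 (5.72 ± 2.95 and 50.03 ± 14.8 copies) and Cdc5l (0.807 ± 1.52 and 10.7 ± 1.93 copies). The E2C mean of Cdc5l rested mostly on E2C 1, at 3.49 copies, with the other E2C embryos at 0.545 or less. The Prp19 complex and catalytic step list was not run with the other tools.

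Of the LSm and SMN assembly list, whose products assemble snRNPs, 11 of 23 rose and 2 fell (47.8% and 8.70%, against 25.6% and 22.8% of all genes, median 0.82). Wdr77, the partner of the methyltransferase Prmt5 that modifies Sm proteins, was at 1.08 ± 0.348 copies per 100000 UMIs (n = 5) at E2C and 26.0 ± 11.7 (n = 6) at L2C. Ddx20, an SMN complex helicase, was at 0.408 ± 0.407 and 14.3 ± 6.39. Other alternative splicing factors were the list with more falls than rises, 11 and 6 of 34 (32.4% and 17.6%, median -0.16). Its largest changes were those of the related RNA-binding proteins Rbm10 (0.298 ± 0.433 and 13.8 ± 4.10) and Rbm5 (0.218 ± 0.487 and 14.0 ± 6.95). Of nonsense-mediated decay and exon junction complex genes, 6 of 15 rose and 2 fell (40% and 13.3%, median 0.52). Magohb went from 24.6 ± 4.10 to 2.18 ± 2.27 copies, while its partner Rbm8a went from 12.6 ± 5.25 to 90.3 ± 15.8. The median over all genes at this step was 0.03.

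The isoforms of the 52 genes were then examined. Of the 833 isoforms, which belonged to 49 genes, 207 were classed as a full splice match, 453 matched part of an annotated transcript (incomplete splice match), 68 joined known splice sites in a new combination and 105 used a new splice site. A full splice match with several exons shares all splice junctions of an annotated transcript. The class also holds single-exon isoforms, which have no junction, such as those of Sf3b5, Hnrnpf and Hnrnpr. No isoform of Srsf12, Hnrnpul1 or Hnrnpul2 was in the table. Isoforms held 79.8% of the members' gene UMIs, against 68.4% over all genes. By family they held 92.95% for Snrp, 75.6% for Sf3, 62.7% for Hnrnp and 58.9% for Srsf genes, so Hnrnp and Srsf genes lay below all genes. Among members with isoforms the part held ran from 4.585% (Srsf10) to 97.08% (Snrpg). Full splice matches held 81.4% of the members' isoform UMIs, against 75.9%. The families differed: the share was 94.9% for Snrp genes, 77.6% for Srsf, 65.3% for Sf3 and 47.9% for Hnrnp genes. Per embryo, the share of full splice matches was 84.9 ± 1.37% (n = 10) in oocytes, 81.1 ± 2.16% (n = 5) at E2C, 74.5 ± 2.51% (n = 6) at L2C and 79.4 ± 4.27% (n = 4) at 16-cell. Over all genes it was higher at L2C than at E2C, 76.8 ± 2.34% (n = 6) against 70.9 ± 1.84% (n = 5). The families differed here as well, with E2C and L2C means of 78.2% and 66.03% for Srsf, 50.3% and 43.4% for Hnrnp, 93.7% and 93.5% for Snrp and 44.2% and 73.0% for Sf3 genes. The Sf3 share includes the only isoform of Sf3b5, a single-exon full splice match, which went from 63 UMIs at E2C to 264 at L2C.

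Single isoforms were tested at the steps on either side of E2C. Their copies are per 100000 UMIs assigned to isoforms and not to genes, so they are not on the scale of the gene values. The isoforms kept in a cell summed to 84419.2 to 97144.3 copies, below 100000, so they did not make up that whole total. In E2C 1, for example, 103229 isoform UMIs were kept, beside 168154 gene UMIs. From zygote to E2C 6 of 403 tested isoforms rose and 13 fell (1.49% and 3.23%, against 2.23% and 2.94% of all isoforms). From E2C to L2C 37 rose and 28 fell (9.18% and 6.95%, against 12.9% and 13.1%). The 37 rises were in 19 genes and the 28 falls in 13, and only Hnrnpf had isoforms called in both directions. Its single-exon form of 1027 bases, which lacks the start codon, went from 41.6 ± 19.9 copies per 100000 UMIs (n = 5) to 19.7 ± 18.6 (n = 6), while its 4-exon full form of 1873 bases went from 0 to 5.41 ± 3.82; Hnrnpf was named for this after its values were seen. Without L2C 1, 67 isoforms were called at this step.

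A switch, defined as a change in the share of a gene's isoforms, was called for 11 of 39 members tested from E2C to L2C (28.2%), against 24.1% of all 3484 genes tested. Whether these shares differ was not tested. Members had a median of 12 isoforms per gene, against 4 over all genes with isoforms. Isoforms per gene were not matched in any of the switch shares. The 11 genes were Snrpd1, Snrpa1, Snrpb2, Hnrnpa2b1, Srsf5, Snrpd3, Hnrnpf, Sf3a1, Hnrnpc, Snrpf and Hnrnpd. Some of these calls rested on few UMIs of a rare form. At E2C and L2C the form held 0 of 9 and 4 of 15 UMIs in Sf3a1, and 0 of 77 and 3 of 29 in Hnrnpd. It held 5 of 103 and 0 of 33 in Snrpd3, and 10 of 751 and 0 of 292 in Snrpf. From zygote to E2C 4 of 41 were called (9.76%, against 4.44%). With limma on shares 0 of 43 switched from oocyte to zygote (5 at an unadjusted gene p under 0.05, 0 with diffSpliceDGE of edgeR, against 0.282% of all genes). From L2C to 4-cell 2 of 43 were called (4.65%, against 2.64%) and from 4-cell to 8-cell 3 of 44 (6.82%, against 2.99%). From 8-cell to 16-cell limma called 0 of 45 (1 at an unadjusted gene p under 0.05, 0 with diffSpliceDGE, against 1.07%), and 1 without 8-cell 2 or 8-cell 3. The count at E2C to L2C depended on the test: diffSpliceDGE called 3 of 39 (7.69%, against 6.57% of all genes), and with 10 or more isoform UMIs per embryo 7 of 13 tested were called (53.8%, against 43.8%). Without L2C 1 limma called 12.

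Srsf5, an SR protein, exchanged one full-length form for another. The form of 2068 bases, at chr12:80944964-80950508 on the plus strand (mm10), with 530 bases after the stop codon, made up 77.7, 52.2, 53.3, 62.9 and 53.8% of the gene's isoform value in the 5 E2C embryos and 13.1, 15.9, 22.2, 24.1 and 17.8% in L2C 2 to L2C 6. All L2C embryos were below all E2C embryos, and L2C 1 had no Srsf5 isoform. The form of 1174 bases, at chr12:80945534-80950184, with 206 bases after the stop codon, made up 8.24, 21.6, 26.0, 16.0 and 23.1% at E2C and 50.6, 39.4, 43.6, 45.6 and 48.0% at L2C, with no overlap. The gene's switch had a limma adjusted p of 0.000306. Both forms match the same annotated transcript, Srsf5-201, and so differ in their ends. With isoforms of the same intron chain merged the switch was not called (limma adjusted p = 0.0259), and with diffSpliceDGE the adjusted p was 0.121. On the separate chip of oocytes, the 2068-base form made up 6 of 28 UMIs (21.4%) over 4 unsplit oocytes, against 65 of 145 (44.8%) over the 10 oocytes of the main tables, so that the share also differed between chips within a stage.

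Snrpd1, an Sm ring protein, showed a like exchange. Its 4-exon form of 639 bases, with 114 bases after the stop codon, made up 46.5, 18.0, 38.0, 32.5 and 21.4% of the gene's isoform value at E2C and 64.0, 67.3 and 75.0% (lowest, median and highest) at L2C. The groups did not overlap. The 4-exon forms of 921 and 743 bases, with 361 and 218 bases after the stop codon, went from 21.1 ± 6.76% and 30.2 ± 9.56% (n = 5) to 8.65 ± 9.24% and 17.1 ± 11.7% (n = 6). At L2C the 921-base form had a median of 5.26%, below its mean, and a highest value of 25.0%. These 3 forms, of 639, 921 and 743 bases, all match Snrpd1-201. A 2-exon partial form of 910 bases, whose exons lie downstream of these forms, made up 1.42 ± 0.952% (n = 9) in zygotes, 4.94 ± 0.788% (n = 5) at E2C and 0% (n = 6) at L2C. The switch was called at both steps (limma adjusted p = 0.00586 and 1.83e-07), and with diffSpliceDGE the second adjusted p was 0.0442, so that the switch was not called by that test. The 639-base form was at 67 of 411 UMIs (16.3%) over the 4 unsplit oocytes of the separate chip and at 641 of 1682 (38.1%) over the 10 oocytes of the main tables.

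Other switches involved partial or non-coding forms beside full ones. For Snrpa1, the form of 1000 bases at chr7:66058900-66074586 on the plus strand, which matches the annotated processed transcript Snrpa1-207, made up 9.44, 12.5, 18.6, 6.77 and 31.3% at E2C. At L2C it was at 2.48% in L2C 2 and at 0 in the other 5 embryos, with no overlap. The gene's limma adjusted p was 1.05e-05, and diffSpliceDGE also called it (adjusted p = 0.00374). A form of 2228 bases with start and stop codons went from 0 to 4.57 ± 6.53% (n = 6). For Snrpb2, forms of 900 and 809 bases that match part of an annotated transcript, the longer with both start and stop codons, went from 3.59 ± 1.88% and 3.39 ± 2.27% (n = 5) to 0% (n = 5), and a form of 1030 bases with a new splice site went from 0.1995 ± 0.446% to 5.81 ± 5.74% on 2 and 3 UMIs, while the gene's isoform UMIs went from 708 to 63 (limma adjusted p = 0.0002, diffSpliceDGE adjusted p = 0.253). Hnrnpa2b1, the gene of hnRNP A2 and B1, had a 3-exon partial form of 535 bases at 7.79, 30.5, 8.68, 19.1 and 23.6% at E2C. That form was at 10.8% in L2C 6 and at 0 in the other L2C embryos, and L2C 6 thus overlapped with E2C. A 5-exon partial form of 794 bases went from 13.2 ± 7.78% (n = 5) to 0% (n = 6), and the full form Hnrnpa2b1-202 from 5.30 ± 3.05% to 0%. The gene's limma adjusted p was 0.000228, diffSpliceDGE did not call it (adjusted p = 0.256), and its isoforms rested on 65 UMIs at E2C and 41 at L2C.

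The 4 genes that switched from zygote to E2C were Hnrnpa2b1, Sf3b1, Snrpd1 and Snrpd3. In Hnrnpa2b1 a 4-exon partial form of 660 bases that stops short of the stop codon went from 12.0 ± 6.45% (n = 9) to 0% (n = 5; limma adjusted p = 0.000222). In Sf3b1 an 11-exon partial form of 1603 bases, also without the stop codon, went from 19.95 ± 12.4% (n = 9) to 2.23 ± 3.06% (n = 5; limma adjusted p = 0.0022). That form was at 0 of 323 UMIs over the 4 unsplit oocytes of the separate chip, against 19 of 320 over the oocytes of the main tables. In Snrpd3 a form of 586 bases went from 0 to 4.56 ± 4.22% and a partial form of 450 bases from 2.51 ± 1.80% to 0% (limma adjusted p = 0.00844). DiffSpliceDGE called 0 of the 4. The count was 2 without E2C 2 and 1 without E2C 3. Snrpd1 lost its switch without E2C 1, E2C 2, E2C 3 or E2C 4 (adjusted p of 0.0109 to 0.0234), Sf3b1 without E2C 1, E2C 3 or E2C 4 (0.012 to 0.0131) and Snrpd3 without E2C 2, E2C 3 or E2C 4 (0.0317 to 0.0411), while Hnrnpa2b1 kept it without any 1 of the 5. Snrpd3 also lost it with isoforms of the same intron chain merged (0.0268).

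After genome activation few members switched, and those named here were chosen after their values were seen. In Srsf1 the annotated intron-retaining form Srsf1-203 made up 44.9 ± 21.8% (n = 4) of the isoform value at 4-cell, against 0% at L2C and at 8-cell. These shares rested on 13 of 24 isoform UMIs at 4-cell, 0 of 12 at L2C and 0 of 23 at 8-cell. Isoforms held only 72 of the 778 gene UMIs of Srsf1 (9.25%), so the shares describe a small part of its transcripts. The annotated full form Hnrnpa2b1-204 went from 0% at L2C to 29.2 ± 16.5% (n = 4) at 4-cell, 29 of 90 UMIs. Hnrnpk and Srsf7 were called from 4-cell to 8-cell through forms that made up 5.08 ± 2.24% and 2.32 ± 1.58% (n = 4) at 8-cell. The Hnrnpk form made up 19 of 486 UMIs (3.91%) over the 4 unsplit oocytes of the separate chip. It made up 0 of 824 over the oocytes of the main tables. Srsf1-203 made up 2 of 12 UMIs over those 4 oocytes. None of the switches in this paragraph was called by diffSpliceDGE, which called 0 members at either step, and with 10 or more isoform UMIs 0 of 23 were called by limma at L2C to 4-cell and 2 of 28 at 4-cell to 8-cell. The count from L2C to 4-cell was 2 without L2C 1, 4 without 4-cell 1 and 5 without 4-cell 2, and from 4-cell to 8-cell it was 1 without 8-cell 4.

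**Figure D5:**
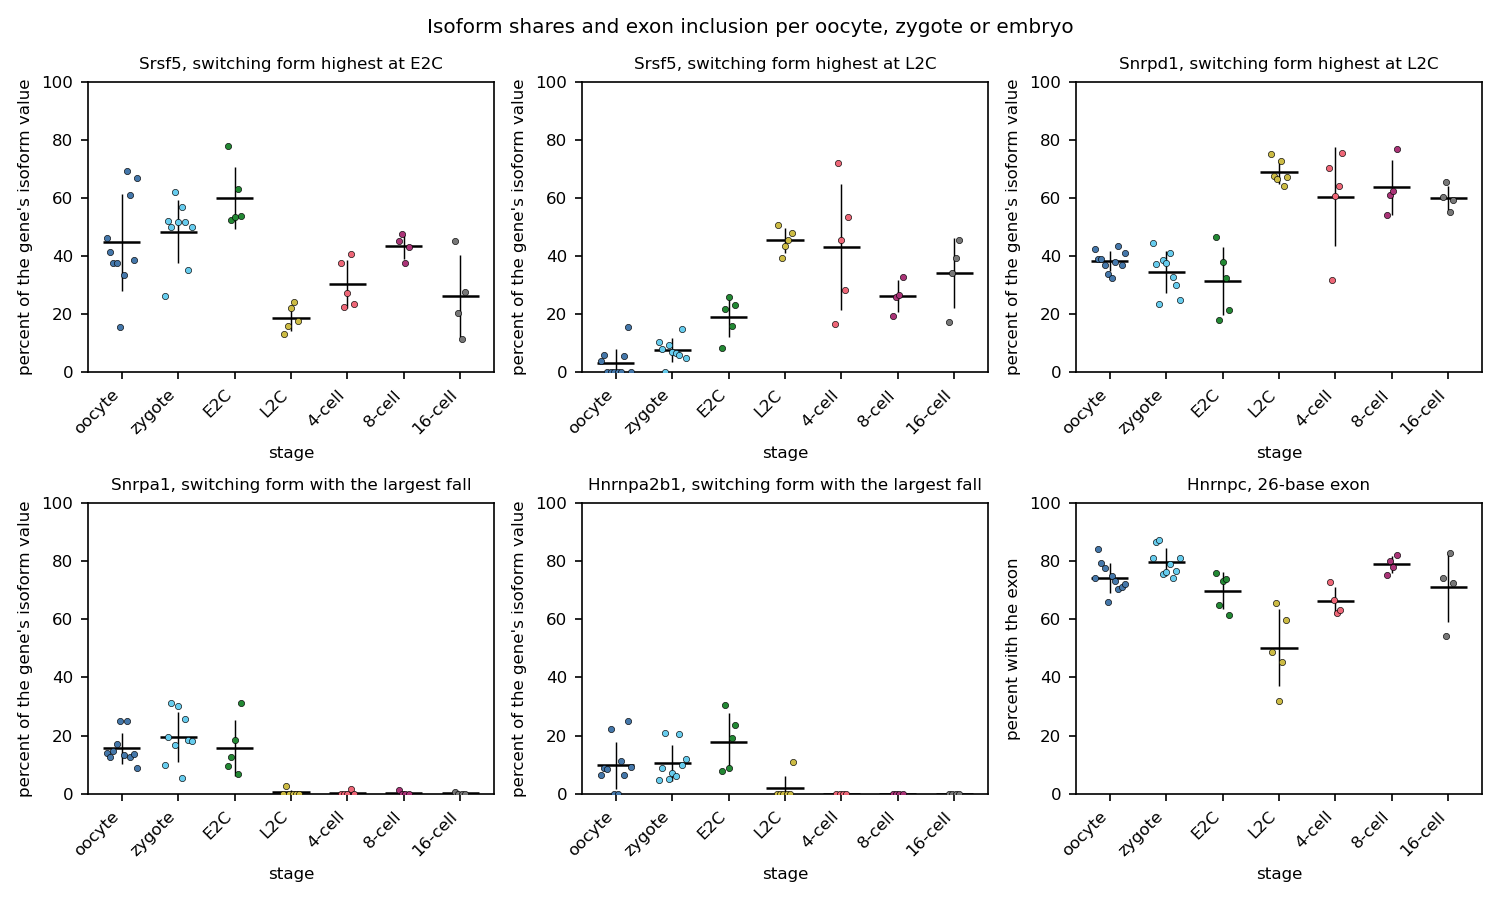
Share of the gene's isoform value held by 5 isoforms that switched from E2C to L2C, and percent of UMIs that include the 26-base Hnrnpc exon (embryos with 10 or more UMIs), where points are oocytes, zygotes or embryos, bars means and whiskers 1 SD. The Srsf5 form highest at E2C went from 60.0% to 18.6% and the form highest at L2C from 19.0% to 45.4%, while the Hnrnpc exon went from 69.9% to 50.3%.

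The isoform with the highest value was compared by its chain of introns. It differed between zygote and E2C in 9 of 37 members with 10 or more isoform UMIs in both stages (24.3%, against 19.6% of 3754 genes) and between E2C and L2C in 12 of 35 (34.3%, against 25.6% of 2474 genes). The number of isoforms per gene was not matched between members and all genes.

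Cassette exons, which are either included between their neighbours or skipped, numbered 53 in 26 members. From zygote to E2C limma on shares called 0 of 20 tested, against 0.881% of all tested, with 3 at an unadjusted p under 0.05; no other tool was run on exons. From E2C to L2C 2 of 14 were called, against 14.8%, both in Hnrnpc and both before its start codon. One is the 26-base exon at chr14:52098015-52098040 on the minus strand (GRCm38, transcript Hnrnpc-201), shown because its run of T, in capitals, is of the kind that hnRNP C itself binds in RNA.
Hnrnpc cassette exon: tgagaTTTTTTTgatcttcagctaca
It was included in 76.1, 64.9, 73.1, 73.9 and 61.5% of UMIs in the 5 E2C embryos and in 48.8, 65.7, 31.8, 45.3 and 59.8% in the 5 L2C embryos with 10 or more UMIs (limma adjusted p = 0.00339). Of these L2C embryos, 4 were below every E2C embryo, and 1 lay within their range. Inclusion was 74.3 ± 5.11% (n = 10) in oocytes and 79.7 ± 4.73% (n = 9) in zygotes, and after L2C it was 66.2 ± 4.89% (n = 4) at 4-cell, 78.9 ± 2.87% (n = 4) at 8-cell and 71.0 ± 12.0% (n = 4) at 16-cell. The other, of 1223 bases at chr14:52097322-52098544, was included in 11.4 ± 5.50% (n = 5) at E2C and 2.86 ± 6.39% (n = 5) at L2C (limma adjusted p = 0.0152), on 9 of 80 and 2 of 124 UMIs. On the separate chip of oocytes it was in 277 of 679 UMIs (40.8%), against 11 of 190 (5.79%) over the oocytes of the main tables. The 1223-base exon contains the 26-base exon.

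Many SR genes carry a poison exon, whose early stop codon marks the transcript for nonsense-mediated decay. Such exons of Srsf3, Srsf6 and Srsf7 are shown up to and including the stop codon, in capitals, because they are the forms by which these genes are known to limit their own level. The first 34 of 456 bases of the Srsf3 exon lie at chr17:29039454-29039487 on the plus strand (transcript Srsf3-201), the first 152 of 268 bases of the Srsf6 exon at chr2:162932815-162932966 on the plus strand (Srsf6-201) and the first 28 of 460 bases of the Srsf7 exon at chr17:80205054-80205081 on the minus strand (Srsf7-203), all in GRCm38. The 36-base coding exon of Srsf7, at chr17:80202169-80202204 on the minus strand, is shown beside them.
Srsf3 poison exon: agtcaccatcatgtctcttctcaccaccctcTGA
Srsf6 poison exon: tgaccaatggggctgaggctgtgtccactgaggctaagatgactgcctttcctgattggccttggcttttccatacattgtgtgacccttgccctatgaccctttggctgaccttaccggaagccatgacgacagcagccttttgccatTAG
Srsf7 poison exon: gtttcttcgtttgagtcagtcgcctTGA
Srsf7 cassette exon: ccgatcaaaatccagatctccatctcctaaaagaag
The Srsf3 exon was in 3 of 148 UMIs (2.03%) pooled over E2C embryos, 6 of 23 (26.1%) at L2C, 12 of 97 (12.4%) at 4-cell, 0 of 362 at 8-cell and 4 of 524 (0.763%) at 16-cell. At L2C no embryo had 10 UMIs, so that step was not tested. The 6 UMIs came from L2C 4, L2C 5 and L2C 6. Whether the exon had a part in the level of Srsf3 was not tested. The Srsf7 exon was in 2 of 59 UMIs (3.39%) at E2C, 7 of 137 (5.11%) at L2C and 14 of 327 (4.28%) at 8-cell, and the Srsf6 exon in 2 of 67 (2.99%) at L2C, 6 of 111 (5.41%) at 4-cell and 8 of 97 (8.25%) at 16-cell. The 36-base exon of Srsf7 was included in 90.6 ± 6.17% (n = 10) in oocytes, 94.0 ± 4.04% (n = 4) at E2C, 96.4 ± 3.63% (n = 4) at L2C and 96.1 ± 3.16% (n = 4) at 16-cell. Srsf genes had 7 cassette exons in 5 genes (Srsf2, Srsf3, Srsf5, Srsf6 and Srsf7). Limma called 0 of the 5 tested from zygote to E2C and 0 of the 4 tested from E2C to L2C, and all of these had an unadjusted p above 0.05.

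The share of a gene's isoforms that reach the annotated stop codon was measured where embryos had 10 or more isoform UMIs. From zygote to E2C it rose in 3 of 12 members and fell in 0 by limma, against 23.0% and 1.51% of all genes tested; 6 had an unadjusted p under 0.05, and no other tool was run on this share. Snrpd3 went from 97.5 ± 1.80% (n = 9) to 100% in all 5 E2C embryos, Sf3b1 from 73.9 ± 13.9% (n = 9) to 95.2, 92.9, 90.0, 95.2 and 92.3%, and Hnrnpa2b1 from 78.2 ± 8.46% (n = 9) to 100, 80.0, 92.9, 87.5 and 100% (limma adjusted p = 0.00764, 0.00942 and 0.0143). All 3 overlapped between the stages. These 3 genes were named after their values were seen, and their partial forms without a stop codon are among those described above. From E2C to L2C the share rose in 1 of 5 members and fell in 1, against 8.48% and 20.1%. Hnrnpc went from 82.9, 93.2, 89.4, 94.6 and 90.0% to 100, 98.2, 100, 100 and 100% in 5 L2C embryos (limma adjusted p = 5.87e-05), with no overlap, and Snrpd1 from 100% in each E2C embryo to 100, 96.9, 97.4, 100 and 100% (limma adjusted p = 0.0414). The Snrpd1 difference, 2 embryos below 100%, was small. The counts rested on few embryos: 5 members were called from zygote to E2C without E2C 3, and 1 from E2C to L2C without any one of the 5 E2C embryos.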

How the data were processed

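Per the methods, the authors built HiFi reads with SMRT-Link, assigned cells and UMIs with scISA-Tools, mapped to mm10 with minimap2, collapsed isoforms with cDNA_Cupcake and classified them with SQANTI3. Isoforms had to be present in at least 5 cells to be kept. The deposited gene and isoform values of 8-cell, 16-cell and 32-cell columns are CPM divided by 10 (copies per 100000 UMIs, with totals taken over genes or over isoforms). The deposited values of the other stages, here called score values, were normalised by the authors in the same way, to CPM divided by 10. The name score is a label used here only, and the scale is the same for all stages. The deposited table of the remaining chip holds whole UMI counts per isoform and was used only for a separate description; 3 chips are pooled in the main tables. Deposited isoform coordinates are those of mm10.

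Cells of an embryo were averaged, and log2(value + 1) was tested with limma 3.58.1 (trend and array weights, R 4.3.3) over genes or isoforms at 1 copy or more in at least 4 embryos. Calls needed a log2 fold change beyond 1 and p below 0.01. Isoform shares were tested as arcsine square roots with limma, with a gene adjusted p below 0.01 and an isoform adjusted p below 0.05 for a switch. Exon inclusion and the share reaching the stop codon needed 10 UMIs per embryo, 3 embryos per stage and an adjusted p below 0.05. UMIs were recovered from the values, and 100% were whole within 0.1, so count tests with edgeR 4.0.16 and DESeq2 1.42.0 were also run, which called 29 and 28 members from E2C to L2C. Scripts were tested on simulated data. Other work used Python 3.11.15, numpy 2.4.6, scipy 1.17.1, pandas 2.3.3 and matplotlib 3.10.9.

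Genes were named by a rule: the 4 largest rises and 4 largest falls among called members at 10 copies or more from E2C to L2C, 2 and 2 at other steps, the highest member of each family, up to 5 switches and 5 cassette exons at the steps on either side of E2C, members never called, 2 genes per list of other splicing genes, and Sf3b2 and Srsf7, on which the study had run RT-PCR. The lists were SR kinases and transport, SR-related and U2AF, U1, U5 and tri-snRNP, Prp19 complex and catalytic step, LSm and SMN assembly, other alternative splicing factors, NMD and exon junction complex, and markers of oocyte, 2-cell, morula and blastocyst, cumulus and granulosa, and sperm. Members and lists were chosen with earlier results of these data known.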

Additional observations from a re-analysis of the deposited data

Results flagged for a closer look

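Dixon's rule, applied to groups of 4 to 10 oocytes, zygotes or embryos, marked 15 values in 203 groups of 29 quantities as lying apart from the rest of their stage; chance gives about 1 in 20. All are in copies per 100000 UMIs, each followed by the nearest other value of its stage. L2C 1 had 3 of them: Hnrnpul2 at 33.39 (9.304), Hnrnpa2b1 at 55.65 (24.28) and the summed Sf3 genes at 50.08 (120.8). The embryo 4-cell 1 had 2, Hnrnpa3 at 13.9 (6.825) and the summed Sf3 genes at 102.7 (136.6), and 8-cell 1 had 2, Snrpa1 at 29.85 (34.98) and the summed Hnrnp genes at 393.7 (520.1). The others were Hnrnpd in 4-cell 3 at 3.36 (4.896), Hnrnpk in oocyte 8 at 90.12 (57.46), Snrpd2 in oocyte 7 at 4.062 (0.5998), Srsf6 in oocyte 9 at 5.045 (3.046), Hnrnph2 in E2C 3 at 4.286 (2.289), Sf3b1 in 16-cell 4 at 6.54 (12.66), the summed Hnrnp genes in L2C 4 at 287.5 (381.4) and the summed Snrp genes in 16-cell 3 at 653.9 (696.8).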

How the results depend on the processing

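Run and stage cannot be told apart, protein was not measured, and depth per cell fell from zygote to 4-cell. No paired analysis was possible because embryos of different stages are different individuals. With cells thinned to 5000 UMIs (1 cell lay below that depth), the members called were 3 from zygote to E2C, 8 from E2C to L2C and 1 at each of the next 2 steps, L2C to 4-cell and 4-cell to 8-cell. A pseudocount of 0.5 gave 2 from oocyte to zygote (3.92%, against 6.49% of all genes), and a pseudocount of 5 gave 0 there (against 0.454% of all genes), 2 from zygote to E2C and 2 from L2C to 4-cell. The other counts in this paragraph are of members only. From 4-cell to 8-cell, 7 were called without array weights, 11 by edgeR and 7 by DESeq2. Switches by diffSpliceDGE were 0 from zygote to E2C, 3 from E2C to L2C and 0 at each of the next 2 steps. With 10 or more isoform UMIs they were 1 from oocyte to zygote, 7 from E2C to L2C and 0 from L2C to 4-cell, and on the share itself 1 from L2C to 4-cell. Cassette exons called from E2C to L2C were 4 at 5 UMIs and 1 at 20 UMIs. With 1 embryo left out at a time (stages of up to 5 embryos, and L2C 1; no oocyte, zygote or other L2C embryo), genes called ranged from 3 to 8 from L2C to 4-cell, 4 to 7 from 4-cell to 8-cell and 0 to 1 from 8-cell to 16-cell. Switches ranged from 1 to 4 from zygote to E2C, 2 to 5 from L2C to 4-cell, 1 to 4 from 4-cell to 8-cell and 0 to 1 from 8-cell to 16-cell, and members with a changed stop codon share from 2 to 5 from zygote to E2C and 1 to 2 from E2C to L2C. Among named genes, 174 of 190 other settings and 121 of 122 leave-outs kept the call, for switches 25 of 35 and 40 of 50, and none reversed.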

Other observations

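The chip kept apart from the main tables held 16 oocyte libraries (4 whole oocytes, 6 labelled split 2 and 6 labelled split 4) with 129744 to 289774 isoform UMIs each. Over the 4 unsplit oocytes, the isoforms of Srsf genes summed to 76.18 to 96.94 copies per 100000 UMIs, of Hnrnp genes to 377.6 to 449.4, of Snrp genes to 369.1 to 462.9 and of Sf3 genes to 58.07 to 86.53. Oocytes differed between chips: Snrpg had 381 isoform UMIs over these 4 oocytes and 5320 over the 10 oocytes of the main tables, whose depth was 106288 to 174495 isoform UMIs each. The reason was not tested. Pooled over all 16 libraries, whole and split, the 26-base Hnrnpc exon was in 785 of 1187 UMIs (66.13%), the 1223-base Hnrnpc exon in 277 of 679 (40.8%), the Srsf3 poison exon in 15 of 1330 (1.128%), the Srsf7 poison exon in 4 of 348 (1.149%) and the 36-base Srsf7 exon in 324 of 360 (90.0%). Over the oocytes of the main tables these exons were in 524 of 703 (74.54%), 11 of 190 (5.789%), 4 of 461 (0.8677%), 1 of 327 (0.3058%) and 310 of 341 (90.91%), in the same order.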
